A study of Mus musculus with 88 samples.

Results

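Embryoid bodies (EBs) are aggregates in which mouse embryonic stem cells (ESCs) leave the undifferentiated state without added lineage-directing factors. The 6 samples described here are bulk RNA-seq libraries of wild-type (WT) EBs at day 2 and day 4, taken from the 88 samples of a series on mutants of Polycomb Repressive Complex 2 (PRC2). They were chosen by their labels as all WT EB samples of these days, with 3 cell lines on each day: J1 (labelled Eed WT), JM8 (labelled Jarid2 WT), and Pcl1-3 wt (labelled Mtf2 WT). Each line is the background-matched control of 1 of the study's Eed null, Jarid2 null, and Mtf2 null ESC lines, and the labels name no targeted allele in any of the 3. Cells were grown in serum with leukemia inhibitory factor (LIF) and aggregated in the same medium, LIF was removed after 2 days of aggregation, and live cells were sorted with 7-AAD on the day of harvest. If days are counted from aggregation, which was not stated, the step from day 2 to day 4 also takes the cells from medium with LIF to medium without it, and time and LIF cannot be told apart. Each line has 1 sample per day, of which the deposited table holds 2 columns that were averaged, so n = 3 lines on each day. The p-values rest on how the change from day 2 to day 4 spreads across these lines. That spread has 2 residual degrees of freedom and is moderated with 3.76 prior ones drawn from all genes tested. Levels are given as CPM, read counts scaled to a common library size with TMM factors, always in the order J1, JM8, and Pcl1-3 wt. A log2 fold change is day 4 minus day 2 on log2(CPM + 0.5), which understates the change of low genes. A gene is said to have risen or fallen where its adjusted p lies under 0.05 in limma with the line as a block and Benjamini-Hochberg adjustment over all genes tested.

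Naive pluripotency, the state of the preimplantation epiblast, is held in serum by LIF, which acts through the receptor Lifr and gp130 to phosphorylate STAT3 and so sustain Klf4, Tfcp2l1, and Socs3. When LIF is withdrawn, cells pass through a formative state marked by Fgf5, Otx2, and Pou3f1, in which Pou5f1 is still present. Nodal, Wnt, BMP, and FGF signals then induce the primitive streak, the source of mesoderm and definitive endoderm, which is marked by T, Eomes, and Mixl1.

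The 6 samples held 6250863 to 15605645 reads, and each line was deeper at day 2 (8913324 to 15605645 reads) than at day 4 (6250863 to 9603787 reads). The column names give other library numbers for the 2 days, so day, depth, and library number go together and cannot be told apart. Library numbers part the lines as well, at 60 to 66 in J1 and 10 to 32 in JM8 and Pcl1-3 wt. Differences of J1 from both other lines thus cannot be told apart from library number either. Genes that parted J1 from both other lines at days 0 and 7 (58 genes, by a log2 difference over 3 and at least 5 CPM) had the same direction for 57 of 58 at day 2 and 58 of 58 at day 4, and the 25 genes that parted JM8 did so for 25 of 25 on both days. No gene parted Pcl1-3 wt in this way, so its label was checked only through the other lines. The undifferentiated markers Pou5f1, Sox2, Nanog, Zfp42, and Esrrb summed to between 1993 and 2814 CPM at day 2 and between 388 and 1301 CPM at day 4. The 10 feeder fibroblast markers summed to between 13.5 and 25 CPM at day 2 and between 31.1 and 167.5 CPM at day 4, the highest in J1, with Lum at 0 in all 6 samples and Col3a1 and Twist2 at 0 in all samples of day 2.

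Of 13753 genes tested, 1559 (11.3%) rose and 1710 (12.4%) fell between day 2 and day 4. Over all genes tested, 3943 were higher at day 4 in each of the 3 lines and 4485 lower in each, together 61.3%. The 3269 called genes were all among them, which a call with the line as a block nearly requires. The counts given for gene lists below stand against these shares of 11.3% and 12.4%, as percentages of the tested members, and a list near them does not stand apart from the other genes. Of the genes tested, 192 were under 1 CPM in all samples of day 2 and so passed the filter of 1 CPM in 3 samples through day 4 alone, and 132 of them rose. Likewise, 111 were under 1 CPM in all samples of day 4 and passed through day 2 alone, and 71 of them fell. A log2 fold change of more than 1 in size was reached by 1139 of the risen and 705 of the fallen genes, and the median over all genes tested was -0.05. With the lines as unpaired samples (no block), 859 genes rose and 754 fell. Without JM8 no gene passed the threshold in limma (2797 genes had an unadjusted p under 0.05), whereas 1691 rose and 2037 fell without J1, and 1354 rose and 1438 fell without Pcl1-3 wt. Without TMM scaling the median over all genes was higher by 0.13 on the log2 scale, and 1944 genes rose and 1101 fell, so that 63.8% of the calls were rises, against 47.7% with it.

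**Figure D1:**
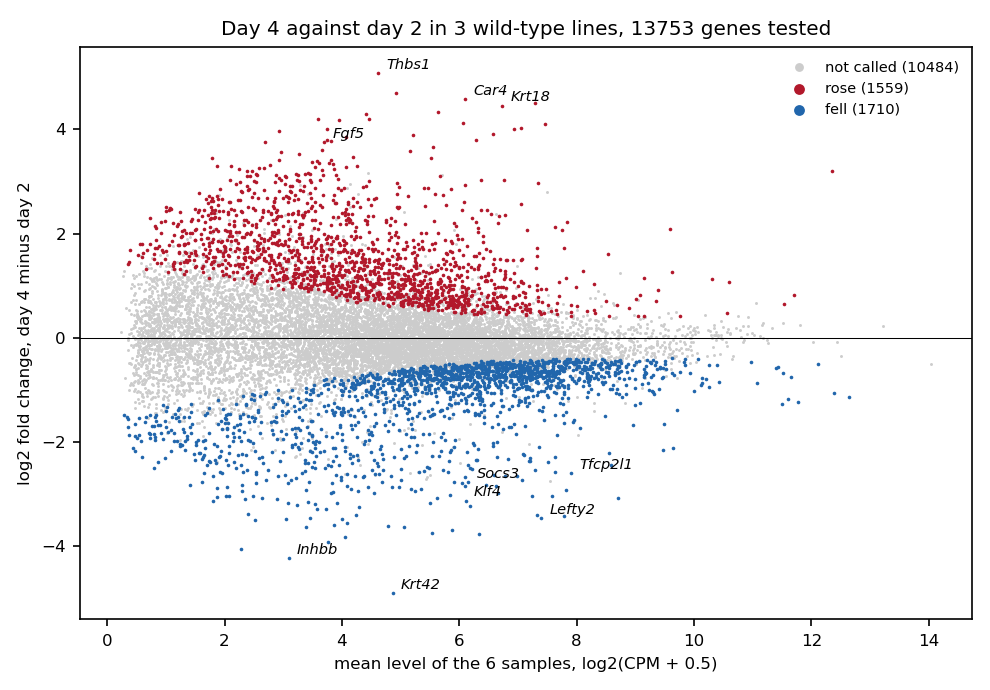
Mean level over the 6 samples in log2(CPM + 0.5) (horizontal axis) and log2 fold change of day 4 against day 2 (vertical axis) for 13753 genes, 1 point per gene. The 1559 genes that rose reach 5.08 (Thbs1), and the 1710 genes that fell reach -4.90 (Krt42).

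By the rule for named genes (mean of at least 5 CPM on the higher day), the largest rise was that of Thbs1 (chr2:118111876-118127133, here and below in mm10 with GENCODE gene bounds), which encodes thrombospondin 1, a matrix glycoprotein. It was at 1.05, 0.378, and 0.564 CPM at day 2 and 90.9, 32.3, and 18.1 CPM at day 4 (log2 fold change 5.08, SE 0.4, adjusted p = 0.00871). Tagln, an actin-binding protein of smooth muscle, was at 1.75, 1.05, and 1.2 CPM at day 2 and 103, 53.5, and 17.9 CPM at day 4 (log2 fold change 4.69, SE 0.44, adjusted p = 0.00871). Car4, a membrane-bound carbonic anhydrase, was at 4.04, 9.5, and 2.46 CPM at day 2 and 137, 179, and 74.6 CPM at day 4 (log2 fold change 4.59, SE 0.21, adjusted p = 0.00455). For all of them every day 4 sample lay above every day 2 sample, although the lines ended at different levels. Most genes named here and below were picked by the size of a called change, which favors such separation of the days. It is a description and lends the calls no support. Krt8 and Krt18, partner keratins of simple epithelia, and Greb1l, a coactivator of retinoic acid signaling, complete the 6 largest rises. Krt8 was at 14, 5.77, and 4.28 CPM at day 2 and 653, 222, and 34.4 CPM at day 4 (log2 fold change 4.51, SE 0.51, adjusted p = 0.0101). Krt18 was at 9.9, 5.77, and 6.37 CPM at day 2 and 342, 207, and 66.2 CPM at day 4 (log2 fold change 4.46, SE 0.38, adjusted p = 0.00871). Greb1l was at 4.2, 4.63, and 2.43 CPM at day 2 and 164, 71.5, and 47.3 CPM at day 4 (log2 fold change 4.32, SE 0.3, adjusted p = 0.00768). Krt8 and Krt18 have processed copies elsewhere in the genome, so their levels, like those of other multicopy families here, are uncertain where reads could be divided between copies.

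The largest fall was that of Krt42 (chr11:100262882-100269871). This type I keratin gene was at 19.3, 62.2, and 85.9 CPM at day 2 and 0.173, 1.41, and 2.66 CPM at day 4 (log2 fold change -4.9, SE 0.24, adjusted p = 0.00483). Inhbb, the activin beta B subunit, was at 12.7, 28.8, and 5.85 CPM at day 2 and 0, 0.283, and 0.476 CPM at day 4 (log2 fold change -4.22, SE 0.55, adjusted p = 0.0128). Mras, a Ras-related GTPase, was at 18.4, 20.9, and 35.6 CPM at day 2 and 2.68, 0.543, and 0.771 CPM at day 4 (log2 fold change -3.92, SE 0.48, adjusted p = 0.0118). In these as well, the levels of the 2 days did not overlap. Yy2, an intronless relative of the transcription factor Yy1, was at 8.4, 13.7, and 4 CPM at day 2 and had no read in any sample of day 4, which makes it at least 21.9-fold lower at a floor of 3 reads per library (adjusted p = 0.00959). Its level in Pcl1-3 wt at day 2 rests on 1 of the 2 columns, at 7.73 and 0 CPM, and it was also at 0 in J1 at day 0 and in JM8 at day 7. Inhbb and Yy2 were under 1 CPM in all samples of day 4 and entered the test through day 2 alone. Their calls are thus not independent of the filter. Nlrp4f, of the oocyte NLRP gene family, was at 17.8, 44.9, and 27.7 CPM at day 2 and 0.0864, 2.9, and 3.73 CPM at day 4 (log2 fold change -3.81, SE 0.45, adjusted p = 0.0109). Morc1, a silencer of transposable elements in germ cells, was at 206, 134, and 104 CPM at day 2 and 5.22, 9.34, and 19.9 CPM at day 4 (log2 fold change -3.77, SE 0.5, adjusted p = 0.0131). J1 had the lowest day 4 level of all 3 lines for Krt42, Inhbb, Nlrp4f, and Morc1 but not for Mras.

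Of 22 naive pluripotency genes 21 were lower at day 4 in every line, against 4485 of all 13753 genes tested, and the exception was Tbx3. The 21 include Dppa3, whose change of -0.04 in Pcl1-3 wt has no stable sign between columns. Of the 22, all tested, 16 fell and 0 rose, against 12.4% of all genes that fell, and their median log2 fold change was -2.36, with -3.68, -2.05, and -1.40 in J1, JM8, and Pcl1-3 wt. In bulk RNA, here and for the lineage genes below, fewer cells of a type and less RNA per cell cannot be told apart. Klf4 (chr4:55527143-55532466), a direct STAT3 target that can replace LIF when supplied, was at 139, 95.9, and 134 CPM at day 2 and 8.65, 16.2, and 17.4 CPM at day 4 (log2 fold change -3.12, SE 0.29, adjusted p = 0.00871). Nr0b1, a nuclear receptor without a DNA-binding domain that binds Pou5f1, was at 61.2, 95, and 88.8 CPM at day 2 and 0.466, 12.6, and 16.7 CPM at day 4 (log2 fold change -3.75, SE 0.69, adjusted p = 0.0211). The homeobox gene Gbx2 was at 13.9, 31, and 17 CPM at day 2 and 1.24, 2.48, and 1.56 CPM at day 4 (log2 fold change -3.18, SE 0.26, adjusted p = 0.00871). For these genes, too, the 2 days did not overlap. Tfcp2l1, a LIF-responsive factor of the naive network, was at 335, 353, and 499 CPM at day 2 and 23.3, 81, and 139.8 CPM at day 4 (log2 fold change -2.59, SE 0.38, adjusted p = 0.0149), with the highest day 4 level in Pcl1-3 wt.

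Some of the best known naive markers did not pass the test. Esrrb, an orphan nuclear receptor, was at 470.1, 322, and 475 CPM at day 2 and 19.9, 102, and 255 CPM at day 4 (log2 fold change -2.36, SE 0.66, adjusted p = 0.0516). Zfp42 (Rex1), a zinc finger factor of undifferentiated cells, was at 839.8, 103, and 80.2 CPM at day 2 and 18.8, 28.1, and 41.7 CPM at day 4 (log2 fold change -2.75, SE 0.82, adjusted p = 0.0597). Zfp42 started far higher in J1 than in the other lines and ended lowest there. Dppa3, shared with primordial germ cells, was at 51.4, 75.2, and 97.7 CPM at day 2 and 7.37, 36.8, and 94.8 CPM at day 4 (log2 fold change -1.26, SE 0.48, adjusted p = 0.106), a drop in J1 and nearly the same level on both days in Pcl1-3 wt. Nanog fell from 391, 378, and 869 CPM to 126, 305, and 367 CPM (log2 fold change -1.06, SE 0.25, adjusted p = 0.0358), and its day 4 level in Pcl1-3 wt was close to the day 2 levels of J1 and JM8. Without the line block 9 of the 22 fell.

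Of 10 LIF/STAT3 genes, 8 were tested, 3 fell (37.5%), and 0 rose. Socs3 (chr11:117966079-117970047), the feedback inhibitor of gp130 signaling that STAT3 induces, was at 137, 128, and 105 CPM at day 2 and 23.5, 14.4, and 16.3 CPM at day 4 (log2 fold change -2.77, SE 0.17, adjusted p = 0.00628). It fell by similar amounts in the 3 lines, with changes of -2.53, -3.12, and -2.66 on the log2 scale. Stat3 itself was at 113, 109, and 106 CPM at day 2 and 73.9, 34.1, and 43.6 CPM at day 4 (log2 fold change -1.18, SE 0.22, adjusted p = 0.0211). Bcl3, an IkB family member, was at 18.5, 20.7, and 15.5 CPM at day 2 and 3.34, 6.4, and 2.51 CPM at day 4 (log2 fold change -2.11, SE 0.28, adjusted p = 0.0129). The receptor genes did not pass the test. Lifr was at 178, 180.1, and 176 CPM at day 2 and 209, 45.3, and 116 CPM at day 4 (log2 fold change -0.78, SE 0.4, adjusted p = 0.193). Il6st, which encodes gp130, was at 119, 111, and 109 CPM at day 2 and 100.4, 72.5, and 150.3 CPM at day 4 (log2 fold change -0.13, SE 0.22, adjusted p = 0.693). Gfap and Osmr were below the filter of at least 1 CPM in 3 samples.

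The Socs3 promoter is shown because, of the 14 fallen LIF/STAT3 and naive genes with a RefSeq promoter window, it is the only one with the STAT motif TTCNNNGAA, which reads the same on both strands. The window covers 250 bases before and 50 bases after the RefSeq start on the minus strand (GRCm38.p6), chr11:117969317-117969616. The window lies inside the GENCODE bounds of Socs3 given above, so this start is downstream of the outer GENCODE bound. The motif is in capitals at position -154 relative to the RefSeq start.
Socs3 promoter: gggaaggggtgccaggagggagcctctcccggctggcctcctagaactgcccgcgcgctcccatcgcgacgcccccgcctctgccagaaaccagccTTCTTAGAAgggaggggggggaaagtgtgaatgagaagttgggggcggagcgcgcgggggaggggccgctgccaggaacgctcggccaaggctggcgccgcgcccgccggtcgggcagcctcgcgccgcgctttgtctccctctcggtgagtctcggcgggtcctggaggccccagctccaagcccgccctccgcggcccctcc
In all, 1 of 19 windows of these 14 genes held the motif (5.26%), against 2726 of the 32851 promoter windows of all genes (8.3%). No window was given for Dppa2, Dppa4, Dppa5a, Klf5, and Prdm14. The TCF/LEF core motif CTTTGA was searched on both strands in the 2 windows of risen primitive streak genes that were given, those of Axin2 and Wnt3, and neither held it, against 5257 of all 32851 windows (16%).

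Of 8 core pluripotency genes, which naive and formative cells share, 4 fell (50%) and 0 rose, with a median log2 fold change of -1.29. Pou5f1 (Oct4, chr17:35506018-35510772), which is required in naive and formative cells alike, was at 756, 762, and 633 CPM at day 2 and 194, 343, and 374 CPM at day 4 (log2 fold change -1.29, SE 0.23, adjusted p = 0.0198). Sox2, its DNA-binding partner, was at 356, 428, and 343 CPM at day 2 and 29.8, 134, and 264 CPM at day 4 (log2 fold change -1.87, SE 0.55, adjusted p = 0.0593), lowest at day 4 in J1 and little changed in Pcl1-3 wt. Tdgf1 (Cripto), a Nodal co-receptor, was at 756, 887, and 609 CPM at day 2 and 235, 310.4, and 172 CPM at day 4 (log2 fold change -1.67, SE 0.11, adjusted p = 0.00766). Foxd3, a forkhead factor of the epiblast, was at 29.4, 19.8, and 27.5 CPM at day 2 and 0.653, 4.42, and 9.97 CPM at day 4 (log2 fold change -2.72, SE 0.63, adjusted p = 0.034). The RNA-binding protein gene Lin28a was at 355, 429, and 250.5 CPM at day 2 and 432, 499, and 387 CPM at day 4 (log2 fold change 0.38, SE 0.12, adjusted p = 0.0771), higher at day 4 in all 3 lines without passing the test.

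Formative genes moved in both directions. Of 20 listed and tested, 9 rose (45%) and 4 fell (20%), and the median was 0.74. Fgf5 (chr5:98254184-98277030), the ligand that marks the postimplantation epiblast, was at 3.19, 1.43, and 0.216 CPM at day 2 and 25.9, 28, and 16.2 CPM at day 4 (log2 fold change 3.76, SE 0.39, adjusted p = 0.00915), from under 4 CPM in each line. Otx2, a homeobox factor, was at 71.8, 36.4, and 1.75 CPM at day 2 and 41.2, 112, and 93.5 CPM at day 4 (log2 fold change 2.07, SE 1.07, adjusted p = 0.201), higher at day 4 in JM8 and Pcl1-3 wt but lower in J1. The POU factor gene Pou3f1 (Oct6) had the same pattern, at 25.4, 37.2, and 12.4 CPM at day 2 and 18.2, 57.9, and 68.8 CPM at day 4 (log2 fold change 0.86, SE 0.52, adjusted p = 0.263). The de novo methyltransferase Dnmt3b was at 380.1, 531, and 190.5 CPM at day 2 and 332, 380.2, and 324 CPM at day 4 (log2 fold change 0.03, SE 0.24, adjusted p = 0.941), a value whose sign turned when Pcl1-3 wt was left out. In edgeR 1 of the 20 genes fell, in place of 4.

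**Figure D2:**
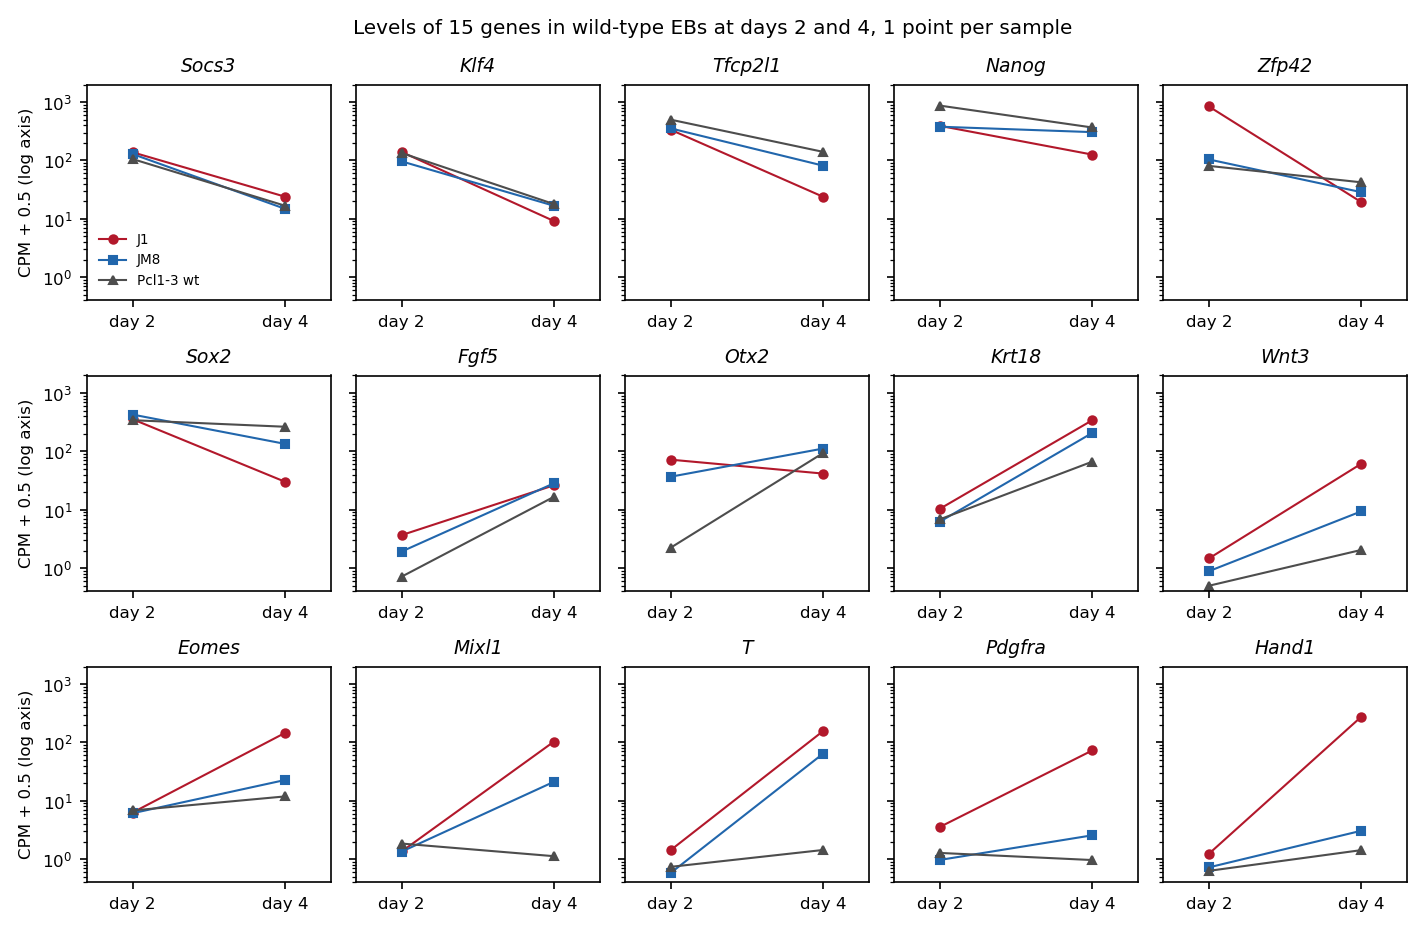
Level of 15 genes in CPM + 0.5 on a log axis (vertical) at day 2 and day 4 (horizontal) in the lines J1 (red circles), JM8 (blue squares), and Pcl1-3 wt (grey triangles), 1 point per sample with the samples of a line joined. Socs3 and Klf4 are lower at day 4 in every line, whereas T, Mixl1, Pdgfra, and Hand1 separate J1, at 156, 103, 72.4, and 275 CPM, from Pcl1-3 wt, at or under 0.94 CPM.

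Primitive streak genes were high at day 4 in J1, lower in JM8, and low in Pcl1-3 wt. Of the 20 listed genes, 2 were at or above 5 CPM in each line at day 2, and 16, 10, and 2 at day 4 in J1, JM8, and Pcl1-3 wt. T (Brachyury, chr17:8434423-8442496), the T-box factor of the streak and nascent mesoderm, was at 0.933, 0.0821, and 0.24 CPM at day 2 and 156, 63.8, and 0.938 CPM at day 4, and since it passed 1 CPM in 2 samples it was not tested. Eomes, which specifies mesendoderm, was at 5.79, 5.63, and 6.33 CPM at day 2 and 145, 22.2, and 11.4 CPM at day 4 (log2 fold change 2.41, SE 0.68, adjusted p = 0.0535). Mixl1, a homeobox gene of the streak, was at 0.855, 0.848, and 1.35 CPM at day 2 and 103, 20.7, and 0.626 CPM at day 4 (log2 fold change 3.17, SE 1.24, adjusted p = 0.113). In both, the order of the lines at day 4 was J1, JM8, Pcl1-3 wt, while at day 2 the 3 lines were close to each other.

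Of the 8 streak genes that passed the filter, 4 rose (50%) and 0 fell, and the 12 others include T, Evx1, Mesp1, Lhx1, Gsc, and Foxa2. Genes high in 1 or 2 day 4 samples only could not pass that filter, and genes that passed it are no fair sample of the list. Wnt3 (chr11:103774150-103817957), the ligand that starts streak formation, was at 0.969, 0.389, and 0 CPM at day 2 and 61.1, 8.91, and 1.56 CPM at day 4 (log2 fold change 3.61, SE 0.65, adjusted p = 0.0201). Fgf8, needed for cells to leave the streak, was at 0.584, 0.651, and 0.502 CPM at day 2 and 52.5, 15.1, and 1.09 CPM at day 4 (log2 fold change 3.35, SE 0.9, adjusted p = 0.0469). The ligand gene Wnt8a was at 0.507, 0.553, and 0.479 CPM at day 2 and 6.57, 5.27, and 4.19 CPM at day 4 (log2 fold change 2.51, SE 0.34, adjusted p = 0.0131). All of them were higher at day 4 in each line, and Wnt8a was the one with nearly equal levels in the 3 lines at day 4. In Pcl1-3 wt, Wnt3 and Fgf8 reached only 1.56 and 1.09 CPM, where 3 reads make 0.469 CPM. Wnt3, Fgf8, and Wnt8a were under 1 CPM in all samples of day 2 and entered the test through day 4 alone, so their calls are not independent of the filter. Without Pcl1-3 wt 7 streak genes rose, with DESeq2 7, and without the line block 2.

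Early mesoderm and cardiac genes were detected mainly in J1. Of 20, 1 was at or above 5 CPM in each line at day 2, and 15, 2, and 1 at day 4. Hand1, a basic helix-loop-helix factor of lateral and extraembryonic mesoderm, was at 0.738, 0.224, and 0.131 CPM at day 2 and 275, 2.57, and 0.93 CPM at day 4 and was not tested. Pdgfra, a receptor of early mesoderm and primitive endoderm, was at 3.07, 0.471, and 0.78 CPM at day 2 and 72.4, 2.06, and 0.467 CPM at day 4 (log2 fold change 1.78, SE 0.87, adjusted p = 0.18). Gata6, a zinc finger factor of endoderm and heart, was at 1.51, 0.602, and 0.719 CPM at day 2 and 44.3, 1.93, and 0.947 CPM at day 4 (log2 fold change 1.96, SE 0.82, adjusted p = 0.131). Both were high at day 4 in J1 alone, which sets single samples side by side and was not tested. The homeobox gene Msx1 was at 0.852, 1.15, and 0.24 CPM at day 2 and 54.2, 9.18, and 3.12 CPM at day 4 (log2 fold change 3.39, SE 0.64, adjusted p = 0.0222). Snai1, a repressor of E-cadherin, was at 1.9, 0.224, and 1.74 CPM at day 2 and 40.7, 3.06, and 3.44 CPM at day 4 (log2 fold change 2.4, SE 0.63, adjusted p = 0.0444), and these 2 of the 11 tested genes rose (18.2%). The 11 are no fair sample of the 20, since Hand1, Mesp1, and others did not pass the filter. Without Pcl1-3 wt 8 of them rose and with DESeq2 7, while without the line block 0 did. Kdr (Flk1), the VEGF receptor of blood and vessel precursors, was at 1.87, 0.509, and 1.64 CPM at day 2 and 302, 2.68, and 2.96 CPM at day 4 (log2 fold change 3.12, SE 1.19, adjusted p = 0.106).

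Of 15 endothelial and blood genes, 10 were tested, and 1 rose and 1 fell (10% each), near the shares of all genes. Lmo2, a factor of blood precursors, was at 0.896, 0.591, and 1.28 CPM at day 2 and 41.6, 4.47, and 3.44 CPM at day 4 (log2 fold change 2.75, SE 0.73, adjusted p = 0.0446). Tek (Tie2), an angiopoietin receptor, was at 15.4, 14.6, and 34.2 CPM at day 2 and 4.73, 2.22, and 10.9 CPM at day 4 (log2 fold change -1.89, SE 0.28, adjusted p = 0.0155). Of the 12 definitive endoderm genes, 4 were tested, 1 fell (25%), and 0 rose, and the median log2 fold change of the 4 was 0.54. The 1 that fell was Trh, the thyrotropin-releasing hormone gene, at 704, 683, and 424 CPM at day 2 and 69.7, 227, and 129 CPM at day 4 (log2 fold change -2.21, SE 0.35, adjusted p = 0.0166). The endoderm factor Sox17 was at 1.24, 0.235, and 0.216 CPM at day 2 and 13.9, 0.696, and 0 CPM at day 4, and the forkhead factor Foxa2 at 0.349, 0.0821, and 0.108 CPM at day 2 and 6.72, 1.09, and 0.313 CPM at day 4, both untested. Again J1 alone passed 5 CPM.

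Of 24 extraembryonic endoderm genes, 16 were tested, 3 rose (18.8%), and 2 fell (12.5%), near the shares of all genes. Fst, which encodes the activin antagonist follistatin, was at 2.56, 1.44, and 2.72 CPM at day 2 and 64.8, 32.2, and 7.95 CPM at day 4 (log2 fold change 3.3, SE 0.61, adjusted p = 0.0214). Lama1, a laminin chain of the basement membrane, was at 173, 71.2, and 131 CPM at day 2 and 41.9, 12.8, and 15.1 CPM at day 4 (log2 fold change -2.51, SE 0.22, adjusted p = 0.00871). The collagen IV gene Col4a2 was at 25.7, 4.68, and 9.66 CPM at day 2 and 163, 29, and 13.1 CPM at day 4 (log2 fold change 1.86, SE 0.46, adjusted p = 0.0392). The secreted products of visceral endoderm Ttr, Afp, and Apoa1 were at most 3.55 CPM in any of the 6 samples. The 10 primitive or visceral endoderm markers, which include these, summed to between 80.5 and 196 CPM at day 2. At day 4 they summed to between 33.5 and 229 CPM, the highest in J1. Among them Gata4 went from 2.68 to 71 CPM and Sox7 from 1.82 to 13.9 CPM in J1, whereas Lama1 was lower there at day 4. Without Pcl1-3 wt 8 of the 16 rose, and with DESeq2 9.

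Of 19 neural ectoderm genes, 9 were tested, 2 rose, and 2 fell (22.2% each), and the neural plate factor Sox1, which was low on both days, was at 0.778, 1.71, and 0.719 CPM at day 2 and 1.28, 3.39, and 1.1 CPM at day 4 (log2 fold change 0.56, SE 0.35, adjusted p = 0.274). Nes, the intermediate filament gene of neural progenitors that the formative list also holds, was at 26.6, 23.4, and 14.2 CPM at day 2 and 137, 115, and 52.4 CPM at day 4 (log2 fold change 2.15, SE 0.17, adjusted p = 0.00871). Irx3, a homeobox gene of the neural plate, was at 0.738, 1.15, and 0.672 CPM at day 2 and 6, 4.11, and 3.75 CPM at day 4 (log2 fold change 1.91, SE 0.35, adjusted p = 0.0212). Tubb3, a neuronal tubulin, was at 66.7, 70.8, and 79 CPM at day 2 and 3.57, 23.9, and 20.8 CPM at day 4 (log2 fold change -2.5, SE 0.49, adjusted p = 0.0233). Nes and Tubb3 moved in opposite directions in each of the lines. Of 22 Hox genes 0 passed the filter, and Hoxb1 and Hoxb2 alone were above 5 CPM in any sample, in J1 at day 4 (6.3 and 7.51 CPM).

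Of 16 Nodal pathway genes 15 were tested, 6 fell (40%), and 3 rose (20%), and without the line block 3 fell and 1 rose. Nodal was at 34.3, 35.9, and 50.1 CPM at day 2 and 20.2, 27, and 28.4 CPM at day 4 (log2 fold change -0.65, SE 0.17, adjusted p = 0.0444). Its inhibitors Lefty1 and Lefty2, which are also its targets, had larger fold changes. Lefty2 was at 305, 311, and 297 CPM at day 2 and 13.2, 37.2, and 40.6 CPM at day 4 (log2 fold change -3.46, SE 0.32, adjusted p = 0.00871). Lefty1 was at 116, 116, and 140.3 CPM at day 2 and 2.81, 17.5, and 38.7 CPM at day 4 (log2 fold change -3.23, SE 0.6, adjusted p = 0.0214). Gdf3, a co-ligand, was at 70.4, 92.1, and 102 CPM at day 2 and 4.29, 22.2, and 45.7 CPM at day 4 (log2 fold change -2.36, SE 0.5, adjusted p = 0.0277). At day 2 the lines had nearly the same levels of Lefty2, and at day 4 all these genes were lowest in J1. The members that rose, named after their values were seen, were the receptor gene Acvr2b (log2 fold change 0.98), the gene of the SMAD partner Foxh1 (1.28), and the convertase gene Furin (1.07).

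Of 27 Wnt pathway genes, 20 were tested, 6 rose (30%), and 2 fell (10%), with a median of 1.04, and with DESeq2 11 rose. The count holds Wnt3 and Wnt8a, which were under 1 CPM in all samples of day 2. Both entered the test through day 4 alone, so the 30% and the median are not independent of the filter. Beside Wnt3 and Wnt8a, Fzd2, a Wnt receptor, was at 8.79, 16.5, and 9.44 CPM at day 2 and 79, 100.3, and 37.8 CPM at day 4 (log2 fold change 2.54, SE 0.25, adjusted p = 0.00898). Notum, a secreted enzyme that inactivates Wnt ligands, was at 28.9, 46.8, and 37.7 CPM at day 2 and 4.94, 3.59, and 5.78 CPM at day 4 (log2 fold change -2.86, SE 0.29, adjusted p = 0.00898). The 2 days did not overlap for Fzd2 or Notum. Ctnnb1, which encodes beta-catenin, was at 653, 696, and 629 CPM at day 2 and 642, 801, and 675 CPM at day 4 (log2 fold change 0.09, SE 0.11, adjusted p = 0.549). Lef1, a nuclear partner of beta-catenin, was at 26.1, 40.8, and 18.1 CPM at day 2 and 84.1, 42.4, and 46.8 CPM at day 4 (log2 fold change 1.02, SE 0.32, adjusted p = 0.069). The direct target Sp5 was at 0.741, 0.766, and 1.71 CPM at day 2 and 30.2, 11.6, and 0.775 CPM at day 4 (log2 fold change 2.36, SE 1.005, adjusted p = 0.135), above 10 CPM at day 4 in J1 and JM8 only. Axin2, a feedback inhibitor and target named for its promoter above, was at 18, 8.25, and 20.6 CPM at day 2 and 128, 45.5, and 36.6 CPM at day 4 (log2 fold change 2.002, SE 0.39, adjusted p = 0.0235).

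Of 20 FGF and ERK feedback genes, 19 were tested, 7 rose (36.8%), and 5 fell (26.3%), and without the line block 3 fell. Dusp4, an ERK phosphatase, was at 21.8, 23.7, and 14.2 CPM at day 2 and 124, 130.0, and 78.3 CPM at day 4 (log2 fold change 2.45, SE 0.14, adjusted p = 0.00602), with all day 4 samples above all day 2 samples. Fgf5 and Fgf8, given above, were the other members with the largest rises. Fgf8 entered the test through day 4 alone, so its call and the list count that holds it are not independent of the filter. Among further members, named after their values were seen, the receptor genes Fgfr1 and Fgfr2 rose (1.28 and 2.005), while the naive-state ligand Fgf4 and the ERK-responsive genes Spry4, Etv4, and Etv5 fell (-2.32, -2.02, -1.99, and -1.13). The list thus held members of both directions.

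Of 18 BMP and Id genes, 16 were tested, 2 rose (12.5%, near the share of all genes), and 0 fell, and with DESeq2 4 rose. The ligand gene Bmp7 was at 3.27, 2.45, and 3.07 CPM at day 2 and 36.6, 14.5, and 12.5 CPM at day 4 (log2 fold change 2.5, SE 0.35, adjusted p = 0.0138), and Msx1 was the other member that rose. Bmp4 was at 22.6, 12.8, and 8.2 CPM at day 2 and 49.5, 4.16, and 2.19 CPM at day 4 (log2 fold change -0.7, SE 0.58, adjusted p = 0.406), higher at day 4 in J1 and lower in the other lines. The BMP target Id1 was at 47.4, 58.6, and 14.5 CPM at day 2 and 87.4, 52.7, and 22.3 CPM at day 4 (log2 fold change 0.44, SE 0.23, adjusted p = 0.203).

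Of 13 genes of simple epithelia and trophoblast 9 were tested, 6 rose (66.7%), and 0 fell, against 11.3% of all genes that rose, and with edgeR 3 rose. Beside Krt8 and Krt18, Krt19 was at 9.48, 5.92, and 7.58 CPM at day 2 and 234, 77.5, and 10.3 CPM at day 4 (log2 fold change 2.86, SE 0.76, adjusted p = 0.045), with its smallest step in Pcl1-3 wt. The trophoblast factor Cdx2 had no read at day 2 and was at 10.8, 1.37, and 0.463 CPM at day 4, and Elf5 was at 0.584, 1.27, and 0.479 CPM at day 2 and 0.586, 1.44, and 1.09 CPM at day 4 (log2 fold change 0.28, SE 0.38, adjusted p = 0.622). Of 20 genes of the epithelial-mesenchymal transition, 19 were tested, 7 rose (36.8%), and 0 fell, and without the line block 4 rose. The risen members included tight junction genes and repressors of epithelial genes alike. The claudin gene Cldn3 was at 1.28, 2.04, and 2.07 CPM at day 2 and 11.5, 18.6, and 12.7 CPM at day 4 (log2 fold change 2.68, SE 0.28, adjusted p = 0.00915). Cldn7 was at 10.8, 12.8, and 3.83 CPM at day 2 and 42.4, 75.2, and 36.5 CPM at day 4 (log2 fold change 2.51, SE 0.27, adjusted p = 0.00933). Zeb2, a repressor of epithelial genes, was at 0.815, 1.85, and 0.958 CPM at day 2 and 62.2, 15.2, and 3.28 CPM at day 4 (log2 fold change 3.23, SE 0.78, adjusted p = 0.037). The claudins ended highest in JM8 and Zeb2 in J1. Cdh1 (E-cadherin) was at 556, 571, and 305 CPM at day 2 and 538, 803, and 477 CPM at day 4 (log2 fold change 0.36, SE 0.16, adjusted p = 0.144). Cdh2 (N-cadherin) was at 7.54, 13.9, and 14 CPM at day 2 and 187, 23.3, and 9.21 CPM at day 4 (log2 fold change 1.56, SE 0.92, adjusted p = 0.253), far higher at day 4 in J1 than in the other lines. Vim (vimentin) was at 82.2, 54.2, and 72.8 CPM at day 2 and 293, 61.5, and 21.1 CPM at day 4 (log2 fold change 0.08, SE 0.62, adjusted p = 0.938), higher at day 4 in J1 and lower in Pcl1-3 wt.

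Of 18 collagen, laminin, and basement membrane genes 16 were tested, 3 rose, and 3 fell (18.8% each), and without the line block 1 rose and 1 fell. Col4a5, a collagen IV chain, was at 0.272, 0.246, and 0.131 CPM at day 2 and 16, 3.33, and 2.65 CPM at day 4 (log2 fold change 3.03, SE 0.53, adjusted p = 0.0191). Col1a2, a fibrillar collagen chain, was at 0.661, 0.471, and 0.108 CPM at day 2 and 16.2, 9.49, and 1.24 CPM at day 4 (log2 fold change 2.91, SE 0.53, adjusted p = 0.0203). Both were under 1 CPM in all samples of day 2 and entered the test through day 4 alone, where they were high, so their rises and the list count that holds them are not independent of the filter. Col1a2 was the 1 called member of the 10 feeder markers, of which 4 were tested (25%). Its partner Col1a1 was at 2.06, 2.65, and 4.98 CPM at day 2 and 107, 4.33, and 2.96 CPM at day 4 (log2 fold change 1.78, SE 1.12, adjusted p = 0.279). The summed level of the feeder markers, which include both chains, was higher at day 4 in each line, and its part in these values was not tested.

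Among genes of DNA methylation and demethylation, most of those called fell. Of 11 genes, all tested, 6 fell (54.5%) and 1 rose (9.09%). Tet2, a dioxygenase that oxidizes 5-methylcytosine, was at 298, 247, and 255 CPM at day 2 and 34.6, 40.8, and 65.6 CPM at day 4 (log2 fold change -2.54, SE 0.23, adjusted p = 0.00871). Zfp57, a zinc finger protein that guards imprints, was at 261, 225, and 247 CPM at day 2 and 33.7, 60.4, and 50.5 CPM at day 4 (log2 fold change -2.37, SE 0.21, adjusted p = 0.00871). Dnmt3l, a cofactor of de novo methylation, was at 208, 217, and 195 CPM at day 2 and 13.3, 41.1, and 147 CPM at day 4 (log2 fold change -2.24, SE 0.61, adjusted p = 0.048). Tet2 and Zfp57 ended at similar levels in the 3 lines, whereas Dnmt3l stayed highest in Pcl1-3 wt. Dnmt1, the maintenance methyltransferase, was at 308, 304, and 282 CPM at day 2 and 261, 185, and 210.4 CPM at day 4 (log2 fold change -0.46, SE 0.13, adjusted p = 0.0551).

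Of the 13 genes of PRC2, the complex that methylates histone H3 at lysine 27, 4 fell (30.8%) and 0 rose in these WT lines, and without TMM scaling 2 fell. Eed, the subunit that reads the mark, was at 240.2, 274, and 197 CPM at day 2 and 75.8, 103, and 91.2 CPM at day 4 (log2 fold change -1.39, SE 0.14, adjusted p = 0.00908). Jarid2, an accessory subunit of PRC2.2, was at 696, 616, and 465 CPM at day 2 and 177, 263, and 397 CPM at day 4 (log2 fold change -1.14, SE 0.31, adjusted p = 0.0493), and Epop, an accessory subunit of PRC2.1, at 293, 247, and 445 CPM at day 2 and 70.2, 57, and 69.2 CPM at day 4 (log2 fold change -2.28, SE 0.16, adjusted p = 0.00768). Eed and Epop fell to similar levels in the 3 lines, while Jarid2 fell least in Pcl1-3 wt. Mtf2, whose mutant the study used and which is named here after its values were seen, was at 446, 337, and 409.8 CPM at day 2 and 140.1, 185, and 309 CPM at day 4 (log2 fold change -0.98, SE 0.24, adjusted p = 0.0384). The catalytic subunit gene Ezh2 was at 177, 189.6, and 128 CPM at day 2 and 124, 144, and 111 CPM at day 4 (log2 fold change -0.37, SE 0.12, adjusted p = 0.0748). Suz12, the scaffold, was at 560.4, 668, and 579 CPM at day 2 and 278, 462, and 794 CPM at day 4 (log2 fold change -0.36, SE 0.27, adjusted p = 0.363). Suz12 was lower at day 4 in J1 and JM8 and higher in Pcl1-3 wt.

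Of 25 S and G2/M phase genes, 7 fell (28%) and 1 rose (4%), and without TMM scaling 3 fell. Ccne1 (cyclin E1) was at 172, 186, and 176 CPM at day 2 and 36, 63.7, and 69.9 CPM at day 4 (log2 fold change -1.7, SE 0.2, adjusted p = 0.0109). Rrm2, a ribonucleotide reductase subunit, was at 283, 355, and 282 CPM at day 2 and 139, 174, and 157 CPM at day 4 (log2 fold change -0.96, SE 0.11, adjusted p = 0.0104). Pcna, the replication clamp, was at 293, 566, and 485 CPM at day 2 and 214, 320.3, and 247 CPM at day 4 (log2 fold change -0.75, SE 0.14, adjusted p = 0.0203). Of these Ccne1 had the largest step. The 2 days did not overlap for Ccne1 and Rrm2, whereas for Pcna the day 4 level of JM8 lay above the day 2 level of J1. Of 13 G1 cyclins and CDK inhibitors 12 were tested, 2 rose (16.7%), and 1 fell (8.33%), near the shares of all genes. The inhibitor gene Cdkn1a (p21) was at 34.3, 17.4, and 31.1 CPM at day 2 and 67.2, 63, and 63.2 CPM at day 4 (log2 fold change 1.27, SE 0.22, adjusted p = 0.019). Cdkn1b (p27) was at 34.3, 27.1, and 25.7 CPM at day 2 and 58.4, 65, and 57.1 CPM at day 4 (log2 fold change 1.05, SE 0.17, adjusted p = 0.0169). Ccnd3 (cyclin D3) was at 152, 144, and 148 CPM at day 2 and 118, 62.4, and 77.8 CPM at day 4 (log2 fold change -0.83, SE 0.18, adjusted p = 0.0307). Cdkn1a and Cdkn1b had nearly equal day 4 levels in the 3 lines. Of 15 p53 targets 14 were tested, 6 rose (42.9%), and 0 fell. Besides Cdkn1a, the antiproliferative gene Btg2 was at 29.9, 27.1, and 20.4 CPM at day 2 and 88.5, 128, and 48.3 CPM at day 4 (log2 fold change 1.66, SE 0.22, adjusted p = 0.0131). The apoptosis gene Bbc3 (Puma) was at 14.6, 11.1, and 9.25 CPM at day 2 and 30.4, 46.4, and 24.9 CPM at day 4 (log2 fold change 1.48, SE 0.25, adjusted p = 0.0184). Phlda3, an inhibitor of AKT, was at 17.8, 22.5, and 18.5 CPM at day 2 and 44.9, 65.2, and 38 CPM at day 4 (log2 fold change 1.28, SE 0.18, adjusted p = 0.0138). Of 20 replication-dependent histone genes, all of which were at or above 5 CPM in each of the 6 samples, 1 rose (5%) and 2 fell (10%).

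Of 23 glycolysis and hypoxia genes, 22 were tested, 10 rose (45.5%), and 1 fell (4.55%), and without the line block 3 rose. P4ha1, a collagen prolyl hydroxylase, was at 58.4, 31.7, and 44.9 CPM at day 2 and 144, 91.4, and 108 CPM at day 4 (log2 fold change 1.35, SE 0.13, adjusted p = 0.00871). Slc2a1 (Glut1) was at 503, 450.0, and 417 CPM at day 2 and 875, 1295, and 1168 CPM at day 4 (log2 fold change 1.27, SE 0.17, adjusted p = 0.0131). The lactate exporter gene Slc16a3 was at 187, 111, and 126 CPM at day 2 and 400.3, 249, and 286 CPM at day 4 (log2 fold change 1.15, SE 0.11, adjusted p = 0.00871). All 3 were higher at day 4 in each line. Of 21 nuclear genes of oxidative phosphorylation 6 fell (28.6%) and 0 rose, and without TMM scaling 3 fell. The complex IV gene Cox7a1 was at 6.52, 6.09, and 11.5 CPM at day 2 and 2.27, 2.44, and 6.71 CPM at day 4 (log2 fold change -1.08, SE 0.29, adjusted p = 0.0457). Cox6c, of the same complex, was at 208, 353, and 360.0 CPM at day 2 and 141, 172, and 216 CPM at day 4 (log2 fold change -0.77, SE 0.13, adjusted p = 0.0189). The complex I gene Ndufs1 was at 159, 265, and 163 CPM at day 2 and 101, 179, and 96.7 CPM at day 4 (log2 fold change -0.66, SE 0.11, adjusted p = 0.0189). Of 13 mitochondrially encoded genes 8 fell (61.5%) and 0 rose, and the first column of each sample alone left 1 fallen. The cytochrome b gene mt-Cytb was at 2439.6, 6200.2, and 3914 CPM at day 2 and 1345, 1634, and 1918 CPM at day 4 (log2 fold change -1.27, SE 0.22, adjusted p = 0.0191). The complex I gene mt-Nd3 was at 222, 792, and 603 CPM at day 2 and 127, 159.7, and 228 CPM at day 4 (log2 fold change -1.5, SE 0.28, adjusted p = 0.0212). Nuclear copies of mitochondrial DNA make these levels uncertain. Of 18 genes of sterol and fatty acid synthesis 4 fell (22.2%) and 0 rose, led by the isoprenoid enzyme gene Idi1 at 161, 295, and 169 CPM at day 2 and 127, 141, and 73.3 CPM at day 4 (log2 fold change -0.87, SE 0.19, adjusted p = 0.0301), and without TMM scaling 1 fell and without J1 10 fell.

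Of 15 immediate early genes 13 were tested, 7 rose (53.8%), and 1 fell (7.69%), and without the line block 4 rose. Ccn1 (Cyr61), a matricellular protein induced by serum and by YAP, was at 3.65, 6.25, and 10.2 CPM at day 2 and 181, 130.2, and 65.3 CPM at day 4 (log2 fold change 4.11, SE 0.51, adjusted p = 0.0118). Jun, an AP-1 subunit, was at 10.6, 6.24, and 2.83 CPM at day 2 and 78, 54.7, and 27.7 CPM at day 4 (log2 fold change 2.98, SE 0.2, adjusted p = 0.0074). Fosl2, its partner, was at 6.91, 3.51, and 1.93 CPM at day 2 and 61.4, 37.5, and 12.6 CPM at day 4 (log2 fold change 2.91, SE 0.26, adjusted p = 0.00871). J1 ended highest for all 3, and each line was higher at day 4 than at day 2. The fallen member was Egr1 (-0.86), named after its values were seen. Of 20 imprinted genes 14 were in the table, all 14 were tested, 3 rose (21.4%), and 0 fell, and without the line block 0 rose. The growth factor gene Igf2 was at 7.16, 5.84, and 2.4 CPM at day 2 and 646, 51, and 17 CPM at day 4 (log2 fold change 4.01, SE 0.73, adjusted p = 0.0207). The retrotransposon-derived Peg10 was at 368, 247, and 76.7 CPM at day 2 and 3021, 627, and 283 CPM at day 4 (log2 fold change 2.09, SE 0.31, adjusted p = 0.0155). Grb10, a growth factor receptor adaptor, was at 94.4, 180.2, and 108 CPM at day 2 and 221, 471, and 163 CPM at day 4 (log2 fold change 1.06, SE 0.18, adjusted p = 0.0184). Igf2 was more than 10 times as high at day 4 in J1 as in JM8. Of 18 germline and 2-cell-like genes 11 were tested, 1 rose, and 1 fell (9.09% each, near the shares of all genes), and without Pcl1-3 wt 5 fell. Dazl, an RNA-binding protein of germ cells, was at 13.2, 9.41, and 14.3 CPM at day 2 and 1.14, 1.96, and 4.84 CPM at day 4 (log2 fold change -2.18, SE 0.38, adjusted p = 0.0191). Tdrd1, of the piRNA pathway, was at 2.41, 2.69, and 0.61 CPM at day 2 and 5.16, 6.13, and 4.98 CPM at day 4 (log2 fold change 1.44, SE 0.39, adjusted p = 0.0479).

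The size of the changes was set side by side in the 3 lines. Over the 1559 genes that rose, the median change was 1.45, 1.41, and 1.13 on the log2 scale in J1, JM8, and Pcl1-3 wt, and over the 1710 that fell it was -0.88, -0.95, and -0.77. Over all 13753 genes tested, 28.1% changed by more than 1 in size in J1, 22.4% in JM8, and 17.3% in Pcl1-3 wt. The SD of the change over the 12201 genes that reached 5 CPM in any of the 6 samples was 1.24, 0.992, and 0.828, whereas the SD between changes computed from single columns was 0.379, 0.417, and 0.453. The spread of changes was thus largest in the line with the smallest spread between its columns. Counting genes whose change differed by more than 2 between lines, and by more than 1 in each of the 16 combinations of columns, 320 were more positive in J1 than in Pcl1-3 wt and 446 more negative. For J1 against JM8 these counts were 162 and 196, and for JM8 against Pcl1-3 wt 77 and 75. Each line has 1 sample per day, so differences between lines have no replicate check beyond these columns. The library numbers of J1 also lie apart from those of the other lines, as given above.

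**Figure D3:**
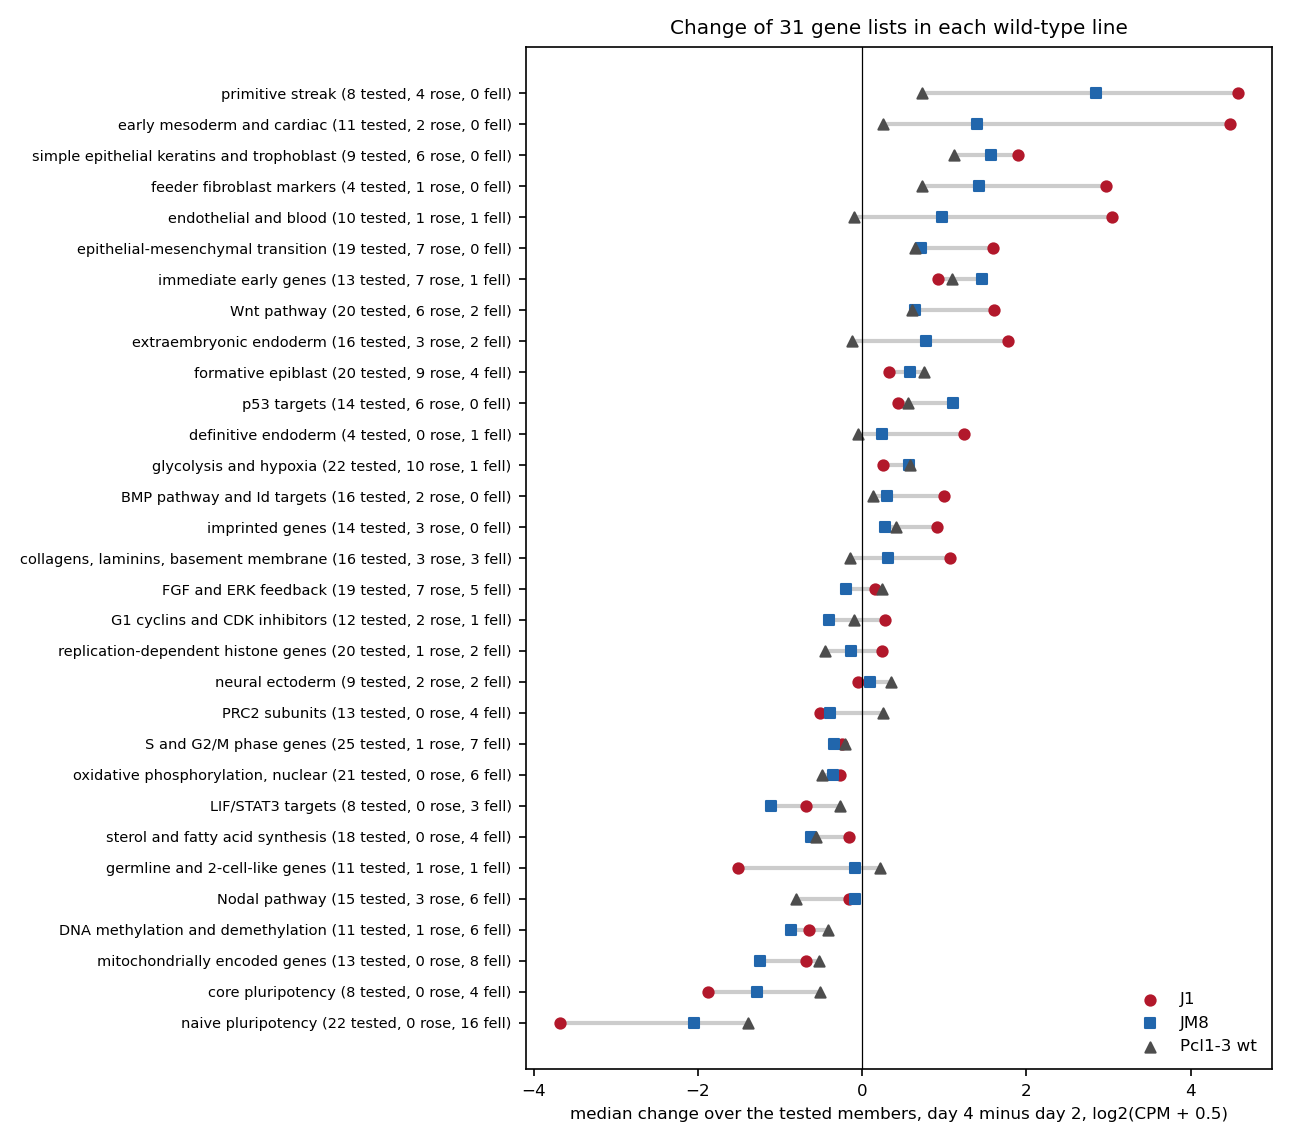
Median change from day 2 to day 4 on the log2 scale (horizontal axis) of the tested members of 31 gene lists (vertical axis), with 1 point per line. Naive pluripotency genes lie at -3.68, -2.05, and -1.40 and primitive streak genes at 4.58, 2.85, and 0.73 in J1, JM8, and Pcl1-3 wt, over the 22 and 8 members that passed the filter.

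**Figure D4:**
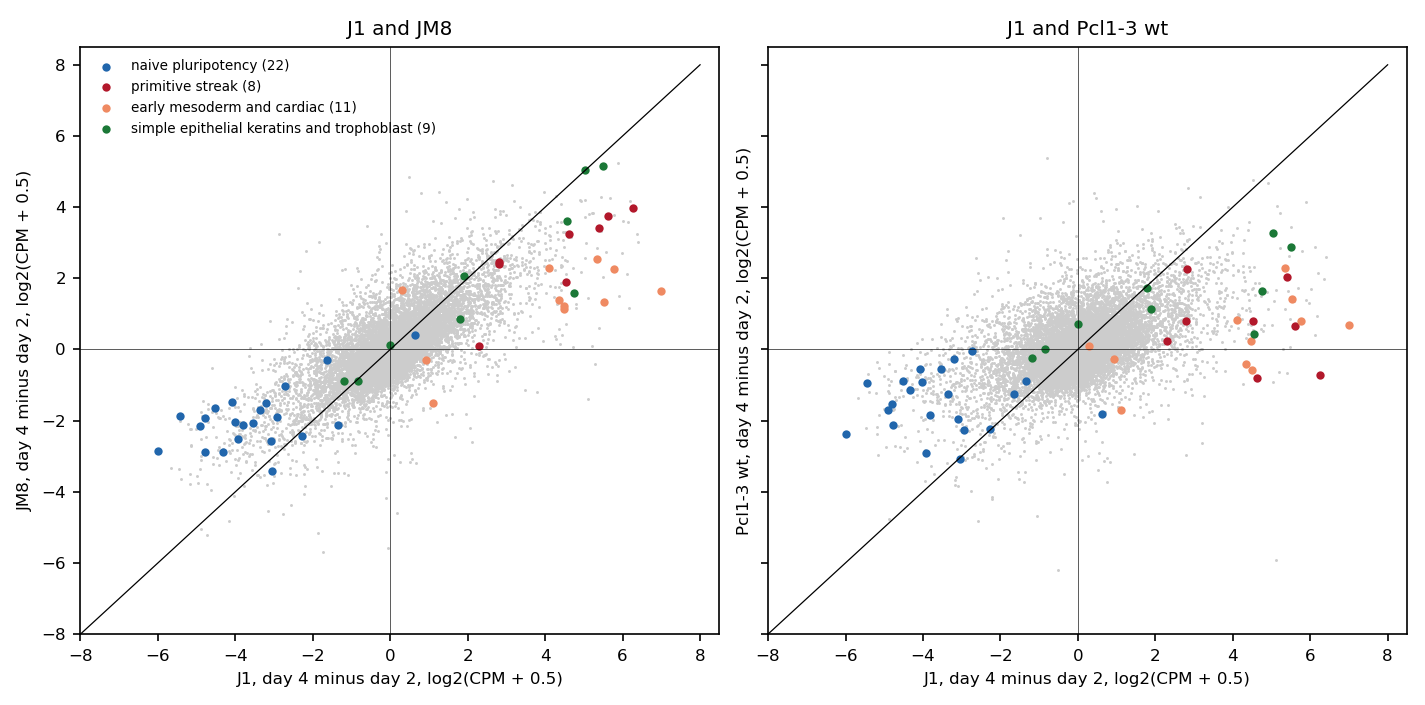
Change from day 2 to day 4 on the log2 scale in J1 (horizontal axes) against JM8 and against Pcl1-3 wt (vertical axes), 1 point per gene, with the tested members of the naive pluripotency (22), primitive streak (8), early mesoderm (11), and keratin (9) lists in color. Median changes of the 11 of 20 early mesoderm genes that passed the filter, which leaves out genes high in 1 or 2 samples only, were 4.48 in J1, 1.40 in JM8, and 0.25 in Pcl1-3 wt.

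The step from day 2 to day 4 was set against its neighbours in the 12 WT samples of days 0, 2, 4, and 7, of which day 0 samples are undifferentiated cells in monolayer. At day 0, J1 has 1 column, and the 2 columns of JM8 share a library number, as do those of Pcl1-3 wt. The difference between the steps was tested for 15025 genes. The step from day 2 to day 4 differed from that of day 0 to day 2 for 3306 genes (22%), with 1562 higher and 1744 lower. The step from day 4 to day 7 differed from it for 537 genes (3.57%), with 220 higher and 317 lower. Each pair of steps shares the samples of a day, so a high or low day enters both with opposite sign.

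Socs3 was at 165, 164, and 155 CPM at day 0 and at 31.2, 35.2, and 19.9 CPM at day 7, so its drop lay mainly between days 2 and 4. This step differed from the one before it by -2.38 (SE 0.33, adjusted p = 0.00475), and the step after differed from this one by 3.41 (SE 0.33, adjusted p = 0.00355). Klf4 was at 109, 172, and 162 CPM at day 0 and 9.59, 21, and 37.9 CPM at day 7, with the same differences at -2.86 (SE 0.56, adjusted p = 0.0102) and 3.66 (SE 0.56, adjusted p = 0.0146). Tfcp2l1 was at 506, 587, and 679 CPM at day 0 and 108, 229.6, and 204 CPM at day 7, with differences, in the same order, of -1.997 (SE 0.62, adjusted p = 0.0438) and 3.995 (SE 0.62, adjusted p = 0.0148). In all 3 genes every line was lower at day 4 than at day 2 and no lower at day 7 than at day 4. Lefty1 was at 31.1, 51.6, and 83.6 CPM at day 0, was higher in each line at day 2, and was at 0.799, 8.41, and 51.4 CPM at day 7, and its step differed from the one before by -4.49 (SE 1.27, adjusted p = 0.0325).

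In J1 and JM8 more streak genes were detected at day 4 than at day 7. T was at 0.505, 0.076, and 0.124 CPM at day 0 and 1.12, 4.54, and 2.01 CPM at day 7, and the step from day 4 to day 7 differed from that of day 2 to day 4 by -7.99 (SE 2.05, adjusted p = 0.0614), short of the threshold. Of the 20 streak genes 5, 5, and 4 were at or above 5 CPM at day 7 in J1, JM8, and Pcl1-3 wt. For early mesoderm these numbers were 16, 15, and 4 of 20, and for Hox genes 6, 8, and 0 of 22. JM8 thus reached the count of early mesoderm genes at day 7 that J1 had at day 4. Nanog was at 22.5, 260.3, and 664 CPM at day 7, lowest in J1, and Fgf5 at 0.914, 3.17, and 17.5 CPM, highest in Pcl1-3 wt.

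**Figure D5:**
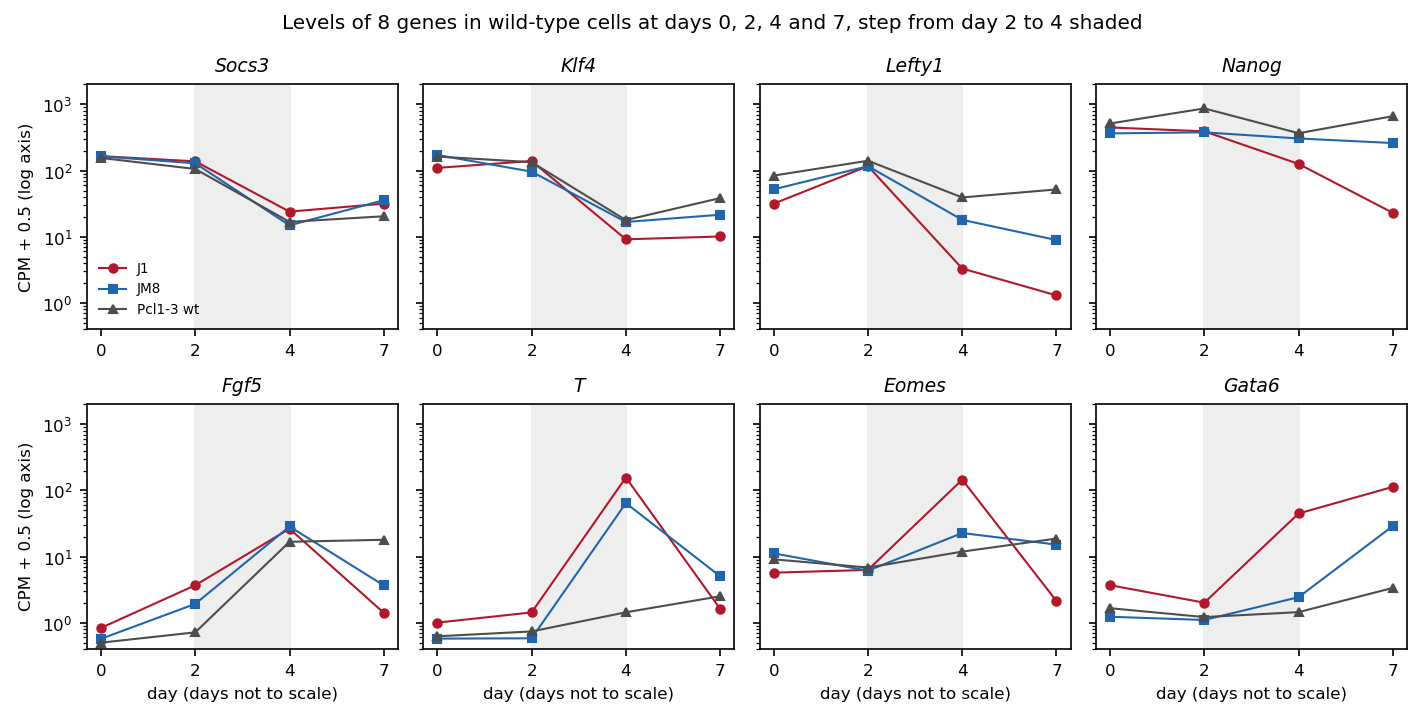
Level of 8 genes in CPM + 0.5 on a log axis (vertical) at days 0, 2, 4, and 7 (horizontal) in the 3 WT lines, 1 point per sample, with the step from day 2 to day 4 shaded. T reaches 156 CPM in J1 and 63.8 CPM in JM8 at day 4 and is at or under 4.54 CPM in all lines at day 7.

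The lines labelled Eed null, Jarid2 null, and Mtf2 null were sampled on the same days and served for comparison. The change from day 2 to day 4 was set against that of the 3 WT lines in limma with the line as a block. Of 15080 genes tested, 0 (0%) differed at the threshold, and 493 had an unadjusted p under 0.05. Socs3 was at 135, 154, and 128 CPM at day 2 and 19.6, 10.7, and 13.3 CPM at day 4 in Eed null, Jarid2 null, and Mtf2 null (interaction -0.49, SE 0.31, adjusted p = 1). T was at 0.881, 0.454, and 0.432 CPM at day 2 and 28.8, 208, and 9.96 CPM at day 4 (interaction 0.39, SE 1.64, adjusted p = 1), and Fgf5 at 0.988, 0.121, and 0.42 CPM at day 2 and 41.7, 46.7, and 23.1 CPM at day 4 (interaction 1.5, SE 0.59, adjusted p = 1). A p that misses the threshold does not show that the steps were alike. With 3 different mutations in 3 lines, the spread within the mutant-labelled group includes differences between mutations. The null lines were compared as a group and not paired with their background-matched WT lines. Differences between backgrounds thus also enter the spread.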

How the data were processed

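Bulk RNA of EBs, which the labels give as polyA RNA, was sequenced as 75 bp paired-end reads. The study's methods describe rRNA depletion for its monolayer RNA, and no selection step for the EBs. Per the study's methods the authors counted reads with Salmon on mm10, and the deposited values are a signal, each column's reads over its DESeq2 size factor. At a tolerance of 0.02, 100% of values came back as whole reads. The table has 26007 genes and 46 columns, of which 35 were used and 11 could not be tied to a sample used here and were not used. The 12 WT columns at days 2 and 4 hold 3005707 to 8113699 reads, and columns of a sample differed by 1.12 to 2.78 times the sampling noise. The authors' single-cell tables and monolayer tables were not used here.

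The 2 columns of each sample (1 for J1 at day 0) were averaged, then scaled to CPM with TMM factors (0.839 to 1.04 at days 2 and 4), and filtered at 1 CPM in 3 of the samples. The fit was limma 3.58.1 in R 4.3.3 (lmFit, eBayes with trend) on log2(CPM + 0.5) with the line as a block, since the labels give the same cell line on both days, and calls were made at an adjusted p under 0.05. The scripts were tested on simulated data. Alternatives included edgeR 4.0.16 (quasi-likelihood) and DESeq2 1.42.0 on the recovered reads, other filters, pseudocounts, and scalings, single columns, and leaving out each line. Lists, 32 with 560 entries, were counted by their called members, without a set test. The members and lists were chosen with earlier results of these data known. Named genes were a set of known markers, the 6 largest changes in each direction with at least 5 CPM, up to 3 called members of each list by size, and uncalled members of textbook rank. The values of 1 gene that this rule names are not reported here. Promoter windows (250 bases before to 50 after the start) were taken from RefSeq. Tables and figures were made with Python 3.11.15, pandas 2.3.3, numpy 2.4.6, and matplotlib 3.10.9.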

Additional observations from a re-analysis of the deposited data

Results flagged for a closer look

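Among the marker genes fixed by name, the step from day 2 to day 4 differed from a neighbouring step for 4 genes (limma, 12 WT samples, Benjamini-Hochberg over 15025 genes). For Klf4 the difference from the step of day 0 to day 2 was -2.86 (SE 0.561, adjusted p = 0.0102), and that of the step of day 4 to day 7 from it was 3.66 (SE 0.561, adjusted p = 0.0146). Tfcp2l1 gave -1.997 (SE 0.617, adjusted p = 0.0438) and 3.995 (SE 0.617, adjusted p = 0.0148). Socs3 gave -2.38 (SE 0.33, adjusted p = 0.00475) and 3.41 (SE 0.33, adjusted p = 0.00355). Lefty1 gave -4.49 (SE 1.27, adjusted p = 0.0325) against the earlier step.

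Dppa3 was lower at day 4 in all 3 WT lines, with changes of -2.72, -1.02, and -0.04 in J1, JM8, and Pcl1-3 wt, and higher in the 3 mutant-labelled lines, with 0.92, 0.23, and 0.98 in Eed null, Jarid2 null, and Mtf2 null. The Pcl1-3 wt change has no stable sign, since its columns were at 118.5 and 75.4 CPM at day 2 and at 78 and 112.5 CPM at day 4, and the Jarid2 null change is one from 1.52 to 1.88 CPM. The difference of 1.97 between the means did not pass the test (SE 0.60, adjusted p = 1.00 in limma over 15080 genes).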

How the results depend on the processing

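Over 18 alternatives, no called gene among the named genes turned its direction, and 0 of 91 stayed called under every alternative, since leaving out JM8 and asking for an adjusted p under 0.001 with a log2 fold change over 1 each left no call at all. The number of genes that rose (1559) was 859 without the line block and 0 at that stricter limit, and leaving out each line gave 0 to 1691. The number that fell (1710) was 1101 without TMM scaling, 754 without the line block, 705 with a log2 fold change over 1 added, and 0 at the stricter limit, and leaving out each line gave 0 to 2037. Of the 91 called named genes, 34 lost their call without the line block, and 10 of 12 uncalled ones gained it somewhere. The log2 fold change of Dnmt3b (0.03) became -0.15 with the second column of each sample alone and, leaving out each line, lay between -0.34 (without Pcl1-3 wt) and 0.29. Of 31 list medians 26 kept their sign throughout. Those of the endothelial, neural ectoderm, FGF and ERK, G1 cyclin, and histone lists did not, and all of these lay near 0 except the endothelial one. The endothelial median was 1.41 in the main fit, with 3.04, 0.97, and -0.10 in J1, JM8, and Pcl1-3 wt. Among genes with at least 5 CPM in 3 samples it was -1.06. The causes were not tested. The filter of 1 CPM in 3 samples left genes expressed in 1 or 2 day 4 samples, such as T and Hand1, out of the test of day 4 against day 2, and the depth of day 4 (6250863 to 9603787 reads) limits genes near 1 CPM.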

Other observations

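Lars2, which encodes the mitochondrial leucyl-tRNA synthetase, was chosen after its values were seen. It was at 511, 416, and 866 CPM at day 2 and at 710.3, 12096, and 16696 CPM at day 4 in J1, JM8, and Pcl1-3 wt (log2 fold change 3.20, SE 0.82, adjusted p = 0.0416 in limma), so that JM8 and Pcl1-3 wt rose steeply and J1 hardly changed. The day 4 libraries are numbered 64 and 66 in J1 and 26 to 32 in the other 2 lines, so line and library number cannot be told apart. Whether these reads come from Lars2 mRNA was not tested, and no cause was tested.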
